A study of Rattus norvegicus with 6 samples.

Results

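Amino acid transporters move amino acids and related small molecules across the plasma membrane and the membranes of organelles. The genes were chosen by name from the table of normalized counts: every row whose name starts with Slc1a, Slc3a, Slc6a, Slc7a, Slc36a, Slc38a or Slc43a and a digit, apart from Slc6a6 and Slc6a12, was taken. This gave 60 of the 27321 features, and the 39 that averaged 5 or more normalized counts over the 6 libraries were tested. A normalized count is the number of reads on a feature divided by a size factor of the library. Of the 60 features, 53 different carrier genes were named, 5 features lay between genes, and Slc7a6os, a neighbour of Slc7a6 on chromosome 19, matched by its name although it encodes no carrier. Slc7a14 was listed in 2 separate rows. Slc1a1 and Slc6a9 were each counted in a feature merged with an overlapping gene model, so their reads cannot be given to 1 gene. Among the 39 tested features, 38 were carrier genes.

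RNA came from the inner medullary (IM) tip, the papillary end of the kidney, of male Sprague-Dawley rats aged 3 months. The control group was 3 rats injected in the tail vein with citrate vehicle, and the STZ group was 3 rats injected with streptozotocin at 62.5 mg/kg, which kills the insulin-producing beta cells of the pancreas. Both groups were killed on day 15, and p-values measure only the spread between these libraries. Libraries held between 3412311 and 5575171 reads on features. The control libraries shared 1 sequencing lane and the STZ libraries ran on others, so lane and treatment cannot be told apart. Of the 9 collecting duct markers listed for this tissue, Aqp2, Aqp3 and Fxyd4 were at or above 2137 normalized counts in every library. The others ranged down to Scnn1a, with 6.15 to 12.9. Markers of another segment were present too, since 3 thick ascending limb genes summed to 1099 to 1886 in control and 209.8 to 597 in STZ rats. In such bulk RNA, fewer cells of a type and less RNA per cell cannot be told apart.

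Cells of the inner medulla live in salt and urea at high concentration, and amino acids serve them as fuel, as building blocks and as part of their pool of organic osmolytes. Several of the carriers work as pairs, in which a heavy chain of the Slc3 family brings a light chain of the Slc7 family to the cell surface. Slc1 proteins carry glutamate or exchange neutral amino acids, Slc38 proteins take up glutamine and other small neutral amino acids with sodium, Slc36 proteins are coupled to protons, and the Slc6 family spans neutral amino acids, monoamines, GABA and creatine. In the kidney many of them are best known from the proximal tubule, which recovers filtered amino acids and does not reach the IM tip.

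RefSeq promoters on GRCr8 were found for 26 of the 38 carrier genes tested, but not for Slc7a13 or Slc7a4. Each was read as the 250 bases before the first listed start, and both strands were searched for 4 short motifs. The core (GTTAAT) of the site bound by HNF1, a factor of renal and hepatic epithelia, was held by Slc6a18, Slc6a19 and Slc7a15, and by 6.46% of the 27457 promoters searched. A TATA box (TATAAA) was found in Slc3a1, Slc3a2 and Slc6a19, and in 13.1% of all promoters. The composite element of ATF4 (TGATGNAA), through which amino acid shortage acts, was held by Slc1a4, Slc38a1 and Slc7a1, against 3.27% of all, and the core of the tonicity element (TGGAAA) by 5 of the 26, against 19.5% of all. The 4 sequences below are shown because the first 3 share the HNF1 core while Slc3a1, another gene best known from the apical side of the proximal tubule, does not have these letters in this window. They are written 5′ to 3′ on the strand of the gene. Capitals mark the motif letters found on either strand, and in Slc3a1 a TATA box on each strand overlaps the other. Their positions on GRCr8 are chr1:31436403-31436652 (plus strand) for Slc6a18, chr1:31414494-31414743 (plus strand) for Slc6a19, chr6:37134502-37134751 (minus strand) for Slc7a15 and chr6:15394750-15394999 (minus strand) for Slc3a1.
Slc6a18: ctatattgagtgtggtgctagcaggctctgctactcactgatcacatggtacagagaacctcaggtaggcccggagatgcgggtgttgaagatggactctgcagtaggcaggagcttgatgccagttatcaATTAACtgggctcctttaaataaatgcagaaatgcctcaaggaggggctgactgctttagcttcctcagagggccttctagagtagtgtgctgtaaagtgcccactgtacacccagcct
Slc6a19: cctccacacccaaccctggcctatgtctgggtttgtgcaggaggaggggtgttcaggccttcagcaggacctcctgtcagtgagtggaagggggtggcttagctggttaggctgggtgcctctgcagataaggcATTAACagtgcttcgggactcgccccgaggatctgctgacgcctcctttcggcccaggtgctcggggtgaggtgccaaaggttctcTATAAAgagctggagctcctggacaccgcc
Slc7a15: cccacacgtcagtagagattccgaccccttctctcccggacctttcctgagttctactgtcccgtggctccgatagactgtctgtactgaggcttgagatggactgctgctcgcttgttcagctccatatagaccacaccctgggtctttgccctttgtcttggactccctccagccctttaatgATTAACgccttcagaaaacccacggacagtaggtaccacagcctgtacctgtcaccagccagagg
Slc3a1: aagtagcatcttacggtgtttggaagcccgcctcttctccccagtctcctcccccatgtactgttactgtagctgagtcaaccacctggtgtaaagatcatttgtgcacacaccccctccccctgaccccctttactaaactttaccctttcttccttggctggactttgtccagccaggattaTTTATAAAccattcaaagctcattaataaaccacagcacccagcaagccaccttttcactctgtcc

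The comparison of STZ with control rats asked which of these genes changed in diabetes. By limma, 0 of the 39 passed an adjusted p-value of 0.05, where 2.1% of the 13486 features tested did. By edgeR there was also none (2.13% of all features), and by DESeq2 there were 2, Slc7a13 and Slc1a3, of the 23 that it gave an adjusted p (6.08% of the 9819 features with one). At an unadjusted p under 0.05, limma gave 9 of the 39, or 23.1%, against 14.7% of all features, with 7 lower (6.99% of all features) and 2 higher (7.75%) in STZ rats. Over the 39, the log2 change (STZ relative to control, taken after adding 1 to each normalized count, so that changes of low genes come out too small) ran from −1.21 for Slc1a3 to 0.93 for Slc6a2. Its median was −0.26, where the median of all features tested was 0.01, and 24 of the 39 lay below 0, or 61.5% against 49.5% of all features.

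In 9 of the 39 features (23.1%) the 3 STZ libraries all lay on one side of the 3 control libraries, which held for 20.3% of all features tested. Of these, 8 were lower in STZ rats (20.5%, against 10.3% of all features): Slc7a13, Slc1a3, Slc6a18, Slc1a1, Slc43a3, Slc3a2, Slc6a8 and Slc1a4. Only Slc7a4 was higher, or 2.56% against 10.1% of all features. For each of the 9, a two-sided exact permutation test gave p = 0.1, below which a design of 3 libraries per group cannot go. Non-overlap fixes that p in advance, so it adds nothing to the choice of these genes. The shares differed with level. With a mean of at least 20, 7 of 22 members were lower without overlap (31.8%, against 12.3% of all features of that level) and 1 was higher. With a mean under 20, 1 of 17 was lower (5.88% against 5.68%) and 0 were higher. The median log2 change was −0.39 in the first set and 0.0035 in the second. No further test was made on these shares.

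**Figure D1:**
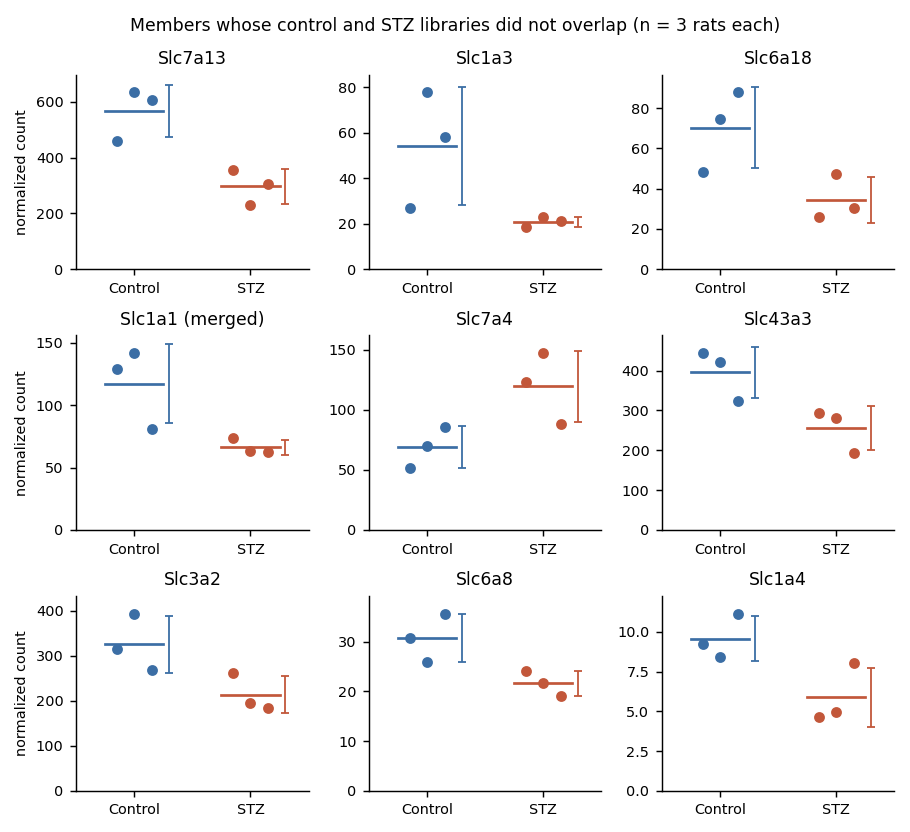
Normalized counts of the 9 tested members whose groups did not overlap, 1 panel per gene, with 1 point per rat in replicate order, a line at the group mean and a bar of ± 1 SD (n = 3 each). Each vertical axis starts at 0. The STZ points lie below the control points in 8 panels and above them for Slc7a4.

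Slc7a13, a light chain that pairs with Slc3a1 to carry acidic amino acids and cystine, came nearest to the threshold. It lies on chromosome 5 of rn4, from 34417522 to 34438068. It had 459, 635 and 607 normalized counts in the control rats numbered 1, 2 and 3, and 355, 228 and 306 in the STZ rats numbered 1, 2 and 3. Every STZ library lay below every control library, and the lowest control and the highest STZ library were both those numbered 1. The means were 567 ± 94.2 and 296 ± 63.7 (SD, n = 3 each). The log2 change was −0.94 (SE 0.22, 95% interval from −1.42 to −0.46) with a limma adjusted p of 0.053. Over 19 alternatives the adjusted p ran from 0.00315 to 0.253 and was under 0.05 in 6, while the log2 change stayed between −1.09 and −0.77. None of the 6 leave-one-out fits passed the threshold.

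Its heavy chain Slc3a1 lies on chromosome 6 (8385159 to 8419456). It had 281, 345 and 543 normalized counts in the control rats numbered 1, 2 and 3. In the STZ rats numbered 1, 2 and 3 it had 451, 702 and 225. The groups overlapped fully, since STZ replicate 2 was the highest and STZ replicate 3 the lowest of all 6 libraries. The log2 change of 0.15 (SE 0.37, limma adjusted p = 0.929) had a 95% interval from −0.67 to 0.96, so this design did not resolve its direction. Within a library, the ratio of Slc7a13 to Slc3a1 was 1.64, 1.84 and 1.12 in the control rats numbered 1, 2 and 3, and 0.786, 0.325 and 1.36 in the STZ replicates. STZ replicate 3 lay above control replicate 3, and the means of 1.53 ± 0.373 and 0.824 ± 0.519 did not separate (exact permutation test, two-sided, p = 0.2). Slc7a9, the other light chain known to pair with Slc3a1, had 2.05, 6.10 and 13.4 normalized counts in control rats and 0.929, 4.95 and 6.02 in STZ rats, at the level of background described below.

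Slc3a2 encodes the second heavy chain, CD98, a partner of most other light chains, and lies on chromosome 1 from 211375888 to 211390313. It had 315, 393 and 268 normalized counts in control and 262, 196 and 184 in the STZ rats numbered 1, 2 and 3. The groups did not overlap, though control replicate 3 and STZ replicate 1 nearly met. Its log2 change was −0.60 (SE 0.22, limma adjusted p = 0.204). Among its light chains, Slc7a6, the exchanger y+LAT2, had 169, 195 and 168 normalized counts in control and 188, 191 and 215 in STZ rats, with a log2 change of 0.16 (SE 0.18, adjusted p = 0.799). That interval was the narrowest of the 39, from −0.24 to 0.56. Slc7a7, the related y+LAT1, had 108, 149 and 112 against 116, 62.3 and 66.3. Only STZ replicate 1 reached the control range, and the log2 change was −0.63 (SE 0.27, adjusted p = 0.299). Slc7a8, the neutral amino acid exchanger LAT2, had 31.8 to 44.2 normalized counts in control and 36.6 to 39.2 in STZ rats. Slc7a5, the exchanger LAT1 for large neutral amino acids, had 11.1 to 14.5 and 7.91 to 12.1.

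Ratios of light to heavy chain within each library were compared next. The ratio of Slc7a6 to Slc3a2 was 0.537, 0.495 and 0.627 in the control rats numbered 1, 2 and 3 and 0.716, 0.975 and 1.17 in the STZ replicates. The means were 0.553 ± 0.0671 and 0.954 ± 0.227, and all 3 STZ values exceeded those of the controls (exact permutation test, two-sided, p = 0.1). The ratio of Slc7a8 to Slc3a2 was 0.120 ± 0.0229 in control and 0.182 ± 0.0341 in STZ rats, where the groups were separated by a hair (0.1452 in control replicate 3 and 0.1454 in STZ replicate 1). For Slc7a7 and Slc7a5 the ratios to Slc3a2 overlapped, with p = 1.0 and p = 0.3 by the same exact permutation test. Of the 7 ratios computed, 2 thus reached the smallest p the design allows, and none would pass an adjustment over the 7. These ratios were not among the planned tests.

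**Figure D2:**
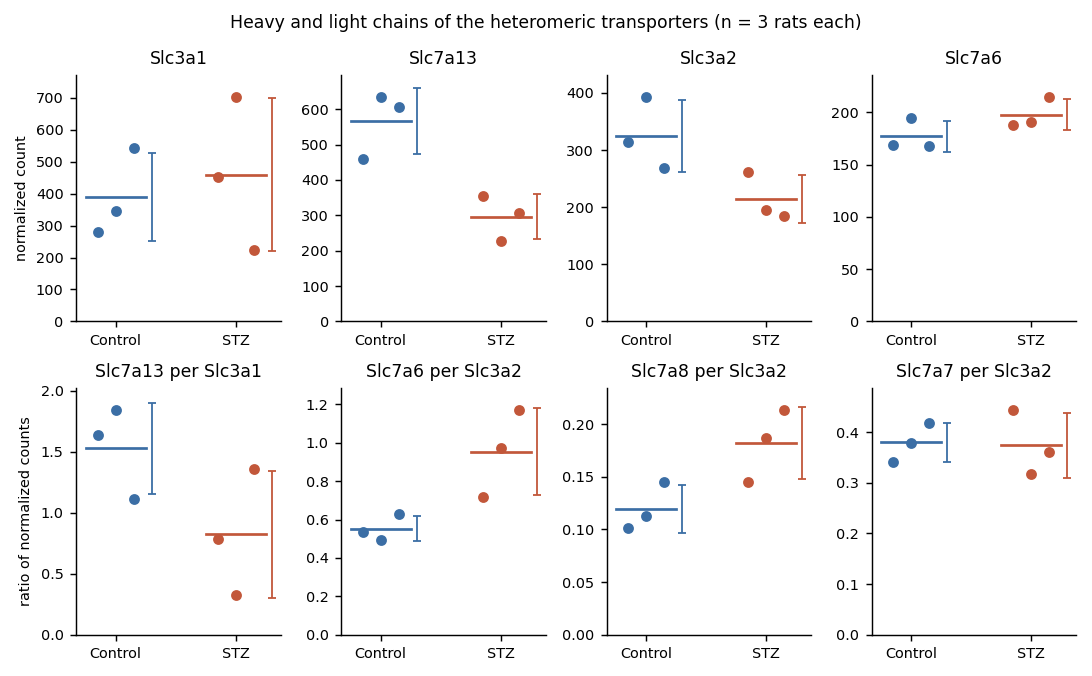
Normalized counts of the heavy chains Slc3a1 and Slc3a2 and of the light chains Slc7a13 and Slc7a6 (upper row), and light chain to heavy chain ratios within each library (lower row), with 1 point per rat, a line at the mean and a bar of ± 1 SD (n = 3 each). The ratio of Slc7a6 to Slc3a2 is above 0.7 in every STZ library and below 0.63 in every control library, whereas the ratio of Slc7a13 to Slc3a1 overlaps.

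The glutamate carrier Slc1a1 (EAAT3), known from epithelia and neurons, was counted in a feature merged with another gene model on chromosome 1 from 232469714 to 232549937. It had 129, 142 and 81.3 normalized counts in control and 73.4, 63.3 and 62.2 in the STZ rats numbered 1, 2 and 3. The STZ libraries sat close together below the lowest control library, and the log2 change was −0.78 (SE 0.25, limma adjusted p = 0.148). Without control replicate 3, the lowest of its group, the adjusted p was 0.0375, and over 19 alternatives it ran from 0.0375 to 0.442. Slc1a3 (EAAT1), the glutamate carrier best known from astrocytes, lies on chromosome 2 from 58270237 to 58347613. It had 26.7, 77.8 and 57.9 against 18.6, 22.7 and 21.1 normalized counts. Control replicate 1 lay close to the STZ libraries while the other 2 control libraries stood well above them. Its log2 change was −1.21 (SE 0.37, limma adjusted p = 0.134). With control replicate 1 left out it was −1.65 (adjusted p = 0.0351), and the adjusted p over 19 alternatives ran from 0.0351 to 0.476.

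All 4 Slc1 genes tested had a log2 change below 0, from −1.21 to −0.37, though that of Slc1a5 turned above 0 without STZ replicate 1. Slc1a4 (ASCT1), which exchanges alanine, serine and cysteine, had 9.23, 8.39 and 11.1 normalized counts in control and 4.64, 4.95 and 8.03 in STZ rats, also without overlap but at a low level (log2 change −0.65, SE 0.51, limma adjusted p = 0.648). Slc1a5 (ASCT2), a main glutamine carrier of growing cells, had 20.5 to 37.8 in control and 10.2 to 30.1 in STZ rats, and the groups overlapped (log2 change −0.37, adjusted p = 0.80).

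Slc6a18, a carrier of neutral amino acids on the apical side of the straight proximal tubule, had 48.2, 74.8 and 87.9 normalized counts in control and 26.0, 47.5 and 30.1 in the STZ rats numbered 1, 2 and 3. The highest STZ and the lowest control library were separated by less than 1 normalized count. On the log2 scale the change was −1.01 (SE 0.31, limma adjusted p = 0.135). Its neighbour Slc6a19, the main neutral amino acid carrier of the intestine and early proximal tubule, lies on chromosome 1 of rn4 with 3136 bases between its end and the start of Slc6a18. Slc6a19 had 22.6, 9.92 and 20.04 against 13.0, 8.90 and 7.03, with overlap (log2 change −0.76, SE 0.45, adjusted p = 0.483). The third gene with the HNF1 core, Slc7a15, a light chain relative that favours aromatic amino acids in rodents, pointed the other way. It had 93.3, 41.2 and 129 normalized counts in control and 239, 102 and 139 in STZ rats, where STZ replicates 1 and 3 stood above the control range and STZ replicate 2 within it (log2 change 0.91, SE 0.41, adjusted p = 0.328). Without control replicate 2 that change was 0.45, and without STZ replicate 1 it was 0.58.

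Slc7a4, a relative of the cationic amino acid carriers with no settled substrate, was the single member higher in STZ rats without overlap. It lies on chromosome 11 (85426545 to 85430216). It had 51.3, 70.2 and 85.7 normalized counts in control and 124, 147 and 88.3 in STZ rats. Control replicate 3 and STZ replicate 3 differed by less than 3 normalized counts. Its log2 change was 0.79 (SE 0.26, limma adjusted p = 0.172, between 0.0678 and 0.505 over 19 alternatives). Slc7a1 (CAT1), the widespread carrier of arginine and lysine, had 92.4 to 124 normalized counts in control and 88.3 to 109 in STZ rats, a log2 change of −0.16 (SE 0.21, adjusted p = 0.842). The inducible Slc7a2 (CAT2) had 6.15 to 33.4 and 2.79 to 25.1.

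Slc38a2 (SNAT2), which in cultured cells is induced by hypertonicity and by lack of amino acids, held 20.7% of the normalized counts of the 60 features. It lies on chromosome 7 (135365171 to 135377341) and had 912, 898 and 687 normalized counts in control and 1089, 1117 and 613 in the STZ rats numbered 1, 2 and 3. STZ replicates 1 and 2 were the highest and STZ replicate 3 the lowest of all libraries. The log2 change was 0.14 (SE 0.25, 95% interval from −0.41 to 0.68, limma adjusted p = 0.896). Slc38a1 (SNAT1), 48914 bases away on the same chromosome, had 304 to 458 normalized counts in control and 289.8 to 357 in STZ rats (log2 change −0.26, adjusted p = 0.638). Slc38a4, also on this stretch, had 71.2 to 78.6 and 47.2 to 74.3. Slc38a9, the lysosomal arginine sensor that feeds into mTORC1, had 57.9 to 78.9 and 49.5 to 61.3. Across the 7 Slc38 genes tested, no group separated, 4 log2 changes were below 0 and 3 above, and the adjusted p was between 0.46 and 0.997.

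Slc43a3, a carrier of purine bases and fatty acids rather than of amino acids, lies on chromosome 3 (68152698 to 68173186). It had 444, 420.3 and 323 normalized counts in control and 292, 281 and 193 in STZ rats, without overlap. The log2 change was −0.64 (SE 0.22, limma adjusted p = 0.183, between 0.0518 and 0.469 over 19 alternatives). Slc43a2 (LAT4), which lets branched-chain amino acids and phenylalanine out of cells, had 171, 174 and 216 against 123, 126 and 175, where STZ replicate 3 reached the control range (log2 change −0.42, SE 0.21, adjusted p = 0.404). Among the other Slc6 genes, the creatine carrier Slc6a8 had 30.8, 25.9 and 35.6 normalized counts in control and 24.1, 21.8 and 19.1 in STZ rats, without overlap (log2 change −0.48, SE 0.28, adjusted p = 0.482). The dopamine carrier Slc6a3 had 8.39 to 24.6 and 18.8 to 31.6, with overlap (log2 change 0.82, SE 0.42, adjusted p = 0.411).

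**Figure D3:**
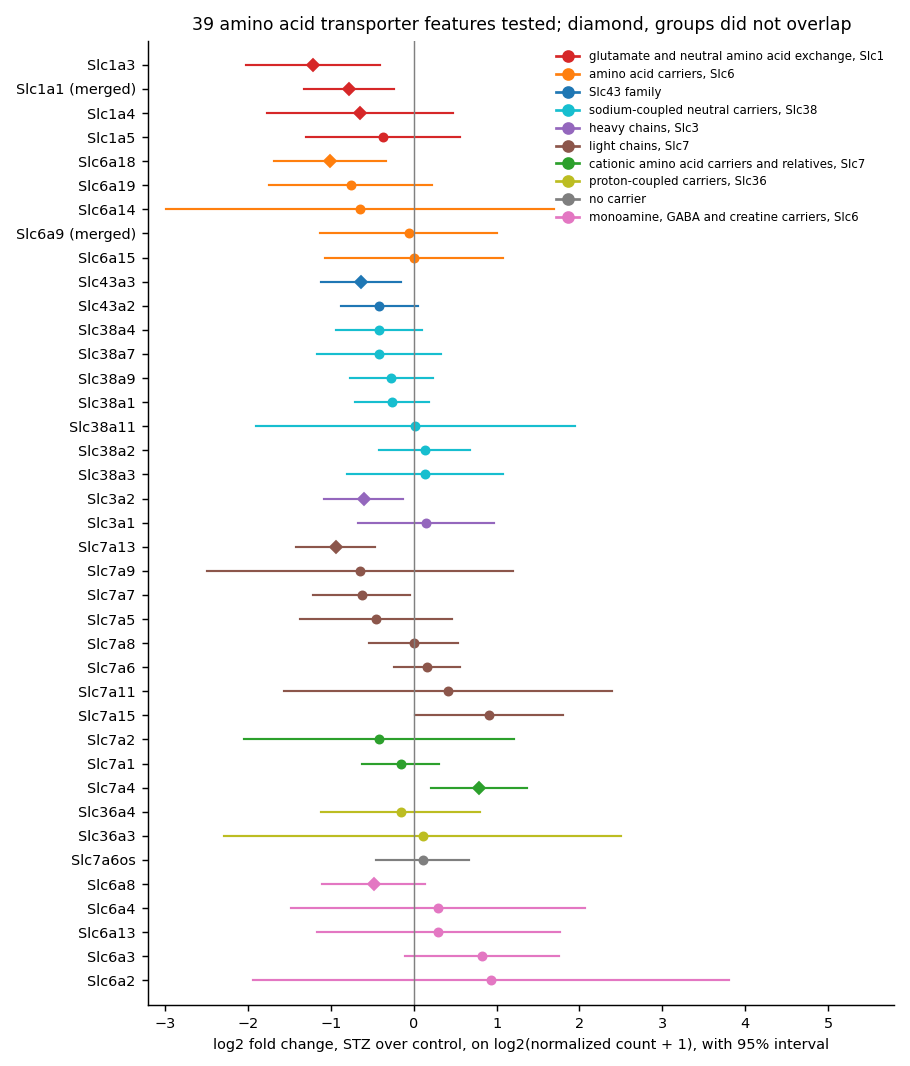
Log2 fold change of the 39 tested features with its 95% interval from limma (n = 3 rats per group), coloured by role, with a diamond where the groups did not overlap. Points run from −1.21 (Slc1a3) to 0.93 (Slc6a2), the intervals of low genes are wide, and all 4 Slc1 genes lie left of 0, Slc1a5 not without STZ replicate 1.

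The distance from the estimate to either end of the 95% interval was between 0.40 and 2.87 on the log2 scale over the 39 features, with a median of 0.82. The smallest log2 change among the 283 features called over the whole table was 0.79. Summed over the 60 features, normalized counts were 4338, 4856 and 4470 in control and 4440, 4260 and 3308 in the STZ rats numbered 1, 2 and 3, and the groups overlapped (exact permutation test, two-sided, p = 0.2).

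The low end of the list was set beside the background of the libraries. Background was taken as the 95th percentile of 836 olfactory receptor genes, which the kidney should hardly express. It was 2.05, 6.29 and 10.02 normalized counts in the control rats numbered 1, 2 and 3, and 1.86, 5.93 and 9.03 in the STZ replicates, with no adjustment for gene length. Of the 39 features, 26 lay above it in all 6 libraries and 13 did not. The 9 tested features with a mean under 10 were Slc7a11, Slc1a4, Slc38a11, Slc6a4, Slc6a14, Slc6a2, Slc7a9, Slc6a13 and Slc36a3. All 9 were highest of the control group in replicate 3 and 7 were highest of the STZ group in replicate 3, compared with 57.9% and 59.7% of the 2175 features of that level. The cystine carrier Slc7a11 (xCT), for example, had 1.03, 6.86 and 13.4 normalized counts in control and 1.86, 7.91 and 20.1 in STZ rats. Its log2 change of 0.41 (SE 0.90, limma adjusted p = 0.916) turned negative without control replicate 1 (−0.39) or STZ replicate 3 (−0.28). The part of background in the level of these genes was not tested.

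**Figure D4:**
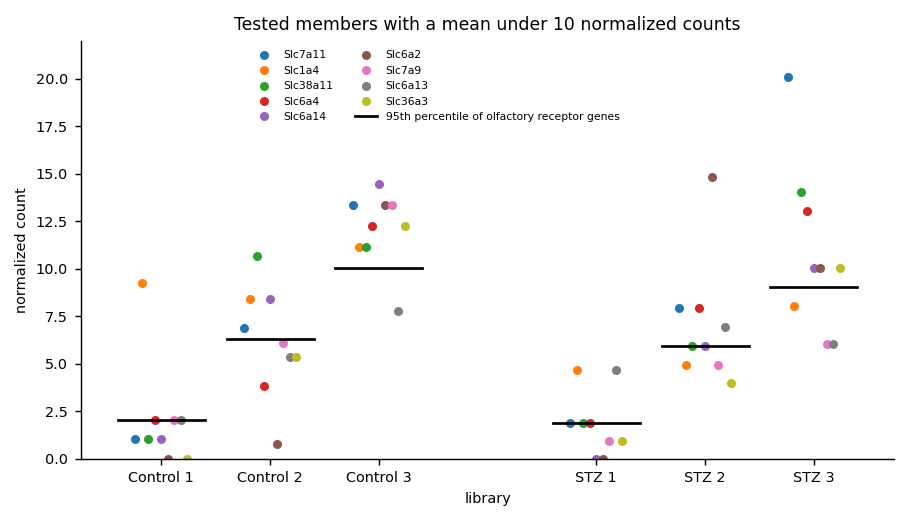
Normalized counts of the 9 tested members with a mean under 10 in each library (coloured points), with a black line at the level below which 95% of the olfactory receptor genes of that library lie. Apart from Slc1a4 in the control group, every gene is lowest of its group in control 1 and STZ 1, and the line reaches 10.02 in control 3 and 9.03 in STZ 3.

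Just above the minimum mean of 5 were Slc7a9 (5.57), Slc6a13 (5.46) and Slc36a3 (5.42), and just below it Slc1a7 (4.98), Slc36a1 (3.65) and Slc6a20 (3.60). Of the 21 features that were not tested, 10 never had more than 3 reads in a library, the floor set here for counting error, and 7 lay above the olfactory percentile in at least 1 library. Those at or under the floor throughout included both rows of Slc7a14, Slc1a6, Slc38a8 and 4 of the features between genes. The other untested features were Slc1a2, Slc7a3, Slc7a12, Slc36a2, Slc38a5, Slc43a1, the neuronal proline carrier Slc6a7 and 1 feature between Slc6a13 and Slc6a12. Slc43a1 had 3.08, 2.29 and 12.2 normalized counts in control and 0, 0.989 and 2.01 in STZ rats, and was above background in 2 libraries. Tested members that passed no description above are Slc6a9, Slc6a15, Slc36a4, Slc38a3 and Slc38a7, whose groups overlapped, with log2 changes between −0.42 and 0.14, and Slc7a6os, with 125 to 245 normalized counts over the 6 libraries.

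Genes around the carriers were described from 5 lists, chosen with earlier results of these data known. Of 18 other carriers of amino acids and peptides found in the table, 12 were tested and none was called by limma (0 at an unadjusted p under 0.05, and 0 by edgeR, and by DESeq2 where it gave an adjusted p). Of 8 partners that traffic or degrade the carriers, none of the 8 tested was called by limma (2 at an unadjusted p under 0.05) or edgeR, and DESeq2 called Laptm4b. The nearest was Laptm4b, a lysosomal protein that recruits the pair of Slc3a2 and Slc7a5. It had 317, 249 and 282 normalized counts in control and 697, 426 and 515 in STZ rats (log2 change 0.93, SE 0.21, limma adjusted p = 0.054, between 0.0026 and 0.25 over 19 alternatives). None of the 25 tested genes of amino acid sensing by mTORC1 was called (1 at an unadjusted p under 0.05, and 0 by edgeR, and by DESeq2 where it gave an adjusted p). Beside these counts, limma called 2.1% and edgeR 2.13% of all features, and DESeq2 called 6.08% of the features with an adjusted p. An unadjusted limma p under 0.05 was given to 14.7% of all features.

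The list of the response to amino acid shortage held Atf4, genes that ATF4 drives, the kinases Eif2ak3 and Eif2ak4, and the aminoacyl-tRNA synthetases. Of its 34 features tested, limma and edgeR each called 1, Aars, lower in STZ rats (2.1% and 2.13% of all features). DESeq2 called Aars and the feature of Ddit3 and Mars (6.08% of the features with an adjusted p). Ddit3 and Mars share 1 merged feature there. Aars, the alanyl-tRNA synthetase, fell from 635, 816 and 636 normalized counts in control to 342, 432 and 321 in the STZ rats numbered 1, 2 and 3. Its log2 change was −0.93 (SE 0.20, limma adjusted p = 0.0381). This call was lost on leaving out any single library other than control replicate 3, with an adjusted p of up to 0.18. In 10 of the 34 the groups did not overlap with STZ lower (10.3% of all features) and in 2, Psat1 and Eif2ak4, with STZ higher (10.1%). Of the 12 synthetases tested, counted after their values were seen, 6 were lower without overlap (Aars, Gars, Iars, Nars, Yars and the merged Mars) and 6 overlapped (Cars, Eprs, Lars, Sars, Tars and Wars). Atf4 itself had 434 to 689 normalized counts in control and 351 to 584 in STZ rats, and Asns, the asparagine synthetase that serves as a classic marker of this response, 542 to 823 and 581 to 669.

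Of 20 tested genes of amino acid metabolism, limma and edgeR each called 2, both higher in STZ rats (2.1% and 2.13% of all features). DESeq2 called these 2 and Gclc (6.08% of the features with an adjusted p). Gclc was lower (log2 change −0.99, limma adjusted p = 0.0747). Without overlap, 4 genes of the list were higher (10.1% of all features) and 2, Gclc and Gamt, were lower (10.3%). Gls2, a mitochondrial glutaminase, rose from 78.9, 64.8 and 82.4 to 136, 182 and 146 normalized counts (log2 change 1.02, SE 0.21, limma adjusted p = 0.0349). This call too was lost without any single library other than control replicate 3, with an adjusted p of up to 0.164. Ckb, the brain-type creatine kinase that uses the creatine carried by Slc6a8, rose from 566, 618 and 399.6 to 1500, 1156 and 1095 normalized counts (log2 change 1.25, SE 0.22, adjusted p = 0.016). Without STZ replicate 1 or 2 its adjusted p was 0.0561 and 0.0574. The list median was −0.02, against 0.01 over all features.

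Markers of other cell types gave a mixed picture, with groups that did not overlap in some lists and did in others, beside 10.3% of all features lower and 10.1% higher without overlap. The summed level of 3 thick ascending limb markers was 1099 to 1886 normalized counts in control and 209.8 to 597 in STZ rats, and Slc12a1, Umod and Egf were each lower without overlap. The sum of 5 intercalated cell markers was 475 to 775 and 176 to 241, with 4 of the 4 tested lower without overlap (Atp6v1b1, Atp6v0d2, Slc4a1 and Foxi1). The sum of 5 endothelial markers was 6987 to 9081 and 3600 to 3990, with 4 of 5 lower without overlap (Emcn, Plvap, Tek and Cdh5). Emcn was the largest part of that sum (4827 to 6520 and 2003 to 2246), while Pecam1 overlapped (log2 change 0.04). The sum of 5 urothelial markers was 85.4 to 132 and 440.1 to 517, with 3 of 5 higher without overlap (Upk3a, Upk1b and Upk2). Most of that difference lay in Upk3a (27.7 to 50.1 and 332 to 367), while Upk1a and Upk3b overlapped. Proximal tubule markers, the cell type in which Slc7a13, Slc6a18 and Slc6a19 are best known, summed to 149.7 to 278 in control and 146 to 199 in STZ rats over 7 genes, with 2 more counted in merged features. Of the 8 tested, only Slc13a3 was lower without overlap. Their median log2 change was −0.42, against 0.01 over all features. Limma gave 2 of them, Slc13a3 and Miox, an unadjusted p under 0.05 (14.7% of all features), both lower. Lrp2 and Pck1 had log2 changes above 0. No marker found was at 0 in all 6 libraries. Cubn was at 0 in control replicate 1 and STZ replicate 1. The 9 collecting duct markers included 3 that were higher without overlap (Aqp2, Scnn1b and Scnn1g), the 3 thin limb markers 2 that were lower (Aqp1 and Epha7), the interstitial markers 1 that was higher (Pdgfra), and the lymphocyte markers 1 that was lower (Lck), whereas all 5 macrophage markers tested overlapped. The part of cell makeup in the values of the carriers was not tested.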

How the data were processed

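RNA of the IM tip of 3 control and 3 STZ rats was sequenced after PCR-based cDNA synthesis. The authors aligned reads to rn4 with STAR 2.3.1t, counted uniquely mapped reads per Ensembl RGSC3.4 gene and normalized them with DESeq (1.16.0 in the submitters' processing notes). The program that counted and its use of strand are not given in the sources used here, so antisense or overlapping genes may share reads. The deposited values are a signal, the count of a feature divided by a size factor of the library. All values (100.0%, within 0.01 of a read) were whole multiples of a step, so that reads were recovered. The cDNA carried no molecular identifiers, so floors cover counting error only.

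The main test was limma 3.58.1 (R 4.3.3) with an intensity trend, fitted to log2 values after adding a pseudocount of 1, for 13486 features averaging 5 or more, with Benjamini-Hochberg adjustment at 0.05. edgeR 4.0.16 and DESeq2 1.42.0 were run on recovered reads as alternatives, the latter leaving 9819 features with an adjusted p. Other alternatives changed the pseudocount, the minimum mean, the scaling, the prior variance, the replicate block and the libraries included. Leaving out both libraries numbered 3 was added after seeing the data. Each method was tested on simulated counts with a common dispersion and with changes larger than those of the transporters. That test does not cover changes of their size. Members and lists were chosen with earlier results of these data known. Named genes are members that passed the threshold or did not overlap, the 10 with the highest mean, the heavy and light chains, those next to the minimum mean, list genes that passed, and markers that did not overlap. Others were named after values were seen. Marker genes were matched by symbol, older symbol or merged feature. Marker sums leave out merged features. Some items are not reported here. Python 3.11.15 drew the figures.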

Additional observations from a re-analysis of the deposited data

How the results depend on the processing

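The number of transporter features called, 0 in the main test, was 1 with a pseudocount of 5, a minimum mean of 1, a minimum mean of 20, quantile normalization or the replicate block, and 2 with DESeq2. Leaving out a library in turn gave between 0 and 1, the one being Slc1a3 without control replicate 1 and Slc1a1 without control replicate 3. In the other cases it was Slc7a13, whose adjusted p was 0.0498 (log2 change −0.93), 0.0486 (−0.94), 0.039 (−0.94), 0.0468 (−0.94), 0.0394 (−0.94) and 0.00315 (−0.94) in the order above, and which did not pass without a filter (0.253), without the intensity trend (0.21) or with edgeR (0.0625).

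Over all features 283 were called in the main test, 98 without a filter, 522 with quantile normalization, 31 without the intensity trend, 597 with DESeq2, 561 with the replicate block, and between 88 and 352 with a library left out. Of the genes in the 5 lists, 3 were called, against 5 with a minimum mean of 20, 0 without a filter, 5 with quantile normalization, 0 without the intensity trend, 6 with DESeq2, 6 with the replicate block, and between 0 and 5 with a library left out. Without both libraries numbered 3, no transporter was called, and 24 of 39 still had a log2 change below 0. That number was between 22 and 31 with a library left out. Equal library totals moved the share of calls that were higher from 55.8% to 48.3%.

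With a library left out in turn, 16 of the 39 log2 changes turned sign in at least 1 case, among them 7 without control replicate 1. The largest of the 16 was 0.65 in size with all libraries in. Among members described singly they included those of Slc1a5 and Slc7a2. They also included those of Slc38a2 (lowest −0.0143, highest 0.42), Slc3a1 (lowest −0.23, highest 0.59), Slc7a11 (lowest −0.39, highest 1.164), Slc7a6os (lowest −0.13, highest 0.35) and Slc7a8 (lowest −0.13, highest 0.11). Same-numbered deviations from the group means correlated with r = 0.574, −0.0148 and 0.496 across 13486 features. Libraries numbered 1 and 3 each correlated best with the same-numbered library of the other group, and neither library numbered 2 did. Control replicate 2 lay near 0 with every STZ library (0.005, −0.0148 and 0.0062). Deviations within a group sum to 0 for each feature, so these values cannot decide whether the replicate numbers pair the rats. The causes of these changes were not tested.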
